A study of Homo sapiens with 6 samples.

Results

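The 10 genes described here encode parts of the TGF-beta and activin pathway: the ligand genes TGFB1, TGFB2 and INHBA, the receptor genes TGFBR1 and TGFBR2, the signal carrier SMAD3, the inhibitory genes SMAD6 and SMAD7, and the nuclear corepressor genes SKIL and TGIF1. They were chosen by symbol from the 23710 gene rows of a table of read counts, and all 10 rows were found and tested. Cells of THP-1, a line from a human monocytic leukaemia, were exposed for 6 h to mebendazole at 10 uM or to DMSO, its solvent. Mebendazole is a drug against worms that binds beta tubulin. RNA was sequenced in 3 mebendazole and 3 DMSO libraries, which the labels number as 3 pairs. The line, its culture medium and the exposure time were shared by both groups, and a single dose and time were measured.

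TGF-beta and activin are secreted dimers made from larger precursors. TGF-beta is held latent until it is released outside the cell. It binds TGFBR2, which activates TGFBR1, and the receptor pair phosphorylates SMAD2 and SMAD3, which join SMAD4 and enter the nucleus. SMAD6 and SMAD7 block the receptors or compete with other SMAD proteins, and the proteins of SKIL and TGIF1 repress SMAD-bound genes. In monocytes and macrophages the pathway is known for restraining inflammatory genes and for tissue repair, and activin A, the dimer made from INHBA, is known as a product of activated macrophages.

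Library totals were 13892038 to 15476356 reads with mebendazole and 13420558 to 15727667 reads with DMSO. Levels are given in CPM, the usual scale of reads relative to library size, after TMM scaling, which sets libraries to a common size by the genes that differ least. Monocytic markers were abundant, with summed levels of 4991 to 5215 CPM with mebendazole and 5540 to 5903 CPM with DMSO. Of 16 such markers, 4 were called higher and 11 lower with mebendazole. For this and the other marker lists, the shares over all 13591 genes tested were 40.6% higher, 41.7% lower and 82.3% in either direction. Summed levels of 8 lymphocyte markers were 4.49 to 5.74 CPM with mebendazole and 2.47 to 3.73 CPM with DMSO, with 1 tested and called higher. Those of 9 erythroid and megakaryocytic markers were 1.46 to 1.89 CPM with mebendazole and 1.63 to 1.94 CPM with DMSO, with 2 tested and 1 called lower. Those of 12 stromal, endothelial and epithelial markers were 129 to 151 CPM with mebendazole and 95.04 to 105 CPM with DMSO, with 5 tested, 2 called higher and 1 lower, and most of that sum was PECAM1, which monocytes also express. The T cell marker genes CD3D, CD3E and CD3G had 0 reads with mebendazole and 5, 1 and 2 reads with DMSO, and the fibroblast gene COL1A2 had 0 reads in both groups. In bulk RNA, fewer cells of a type and less RNA per cell cannot be told apart.

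The promoter sequences of 4 of the genes are shown because they hold at least 1 of 5 searched motifs. The search covered the 250 bases before the start that RefSeq lists (build GRCh38.p14). All 10 genes matched a promoter there. Only 1 start per gene was searched, and the start used in these cells was not measured. For SMAD3, SMAD7 and INHBA it may not be the start used most in monocytes. Motifs were searched on both strands as CAGACA, which holds the CAGA box bound by SMAD3, GTCTAGAC, the palindromic SMAD binding element, TGANTCA of AP-1, TGACGTCA of CREB, and TATAAA of the TATA box. Capitals mark the matches, written 5′ to 3′ in the direction of the gene.
INHBA, chr7:41703091-41703340, minus strand: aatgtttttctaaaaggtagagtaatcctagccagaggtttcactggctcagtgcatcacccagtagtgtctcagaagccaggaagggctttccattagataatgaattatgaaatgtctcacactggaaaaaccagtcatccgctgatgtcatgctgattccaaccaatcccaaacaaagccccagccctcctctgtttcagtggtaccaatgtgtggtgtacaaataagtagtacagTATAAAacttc
TGFB2, chr1:218345086-218345335, plus strand: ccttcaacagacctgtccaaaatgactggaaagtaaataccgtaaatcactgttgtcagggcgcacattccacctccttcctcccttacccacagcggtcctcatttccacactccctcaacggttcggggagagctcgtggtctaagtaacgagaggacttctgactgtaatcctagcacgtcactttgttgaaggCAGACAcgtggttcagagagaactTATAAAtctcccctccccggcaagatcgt
SKIL, chr3:170357465-170357714, plus strand: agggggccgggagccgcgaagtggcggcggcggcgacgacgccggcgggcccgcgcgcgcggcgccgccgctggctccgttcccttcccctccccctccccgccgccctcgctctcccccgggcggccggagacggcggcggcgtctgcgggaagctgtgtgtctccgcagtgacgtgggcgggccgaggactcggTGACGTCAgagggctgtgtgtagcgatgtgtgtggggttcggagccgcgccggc
SMAD6, chr15:66701986-66702235, plus strand: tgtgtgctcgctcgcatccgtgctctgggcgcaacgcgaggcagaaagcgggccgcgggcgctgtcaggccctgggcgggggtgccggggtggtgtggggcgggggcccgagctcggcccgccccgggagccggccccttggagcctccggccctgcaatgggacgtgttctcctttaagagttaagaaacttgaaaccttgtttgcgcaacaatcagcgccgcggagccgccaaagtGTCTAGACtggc

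INHBA had TATAAA starting 11 bases before the start, and TGFB2 had it at 29 bases with CAGACA at 53 bases. SKIL had TGACGTCA at 54 bases, and SMAD6 had GTCTAGAC at 12 bases. Among 35116 promoters of the same length, 10.7% held TATAAA, 13.6% CAGACA, 1.65% TGACGTCA and 0.182% GTCTAGAC. TGANTCA, held by 6.57%, was in none of the 10 windows, and TGFB1, TGFBR1, TGFBR2, SMAD3, SMAD7 and TGIF1 had no match to any of the 5 motifs. A match or its absence describes the letters of the listed window only, and other starts of the same gene were not searched. The GTCTAGAC element stood before SMAD6, which did not pass the test of change, and the other matches stood before genes that rose. TGFBR1, TGFBR2 and TGIF1 were called higher without a match, and a link between motif and change was not tested.

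The comparison of mebendazole with DMSO asked which of these genes differ between drug and solvent. INHBA, TGFB2, TGIF1, SKIL, TGFBR2 and TGFBR1 were called higher (6 of 10, against 40.6% of the 13591 genes tested). TGFB1 and SMAD3 were called lower (2 of 10, against 41.7%), and SMAD6 and SMAD7 did not pass the test. In either direction 8 of the 10 were called, which is near the background of 82.3% of all genes tested and says nothing particular about these genes. The median log2 fold change of the 10 was 0.61, against -0.03 over all genes tested. A call means an adjusted p (Benjamini-Hochberg, over all genes tested) under 0.05 in edgeR's quasi-likelihood test with the pair as a term.

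**Figure D1:**
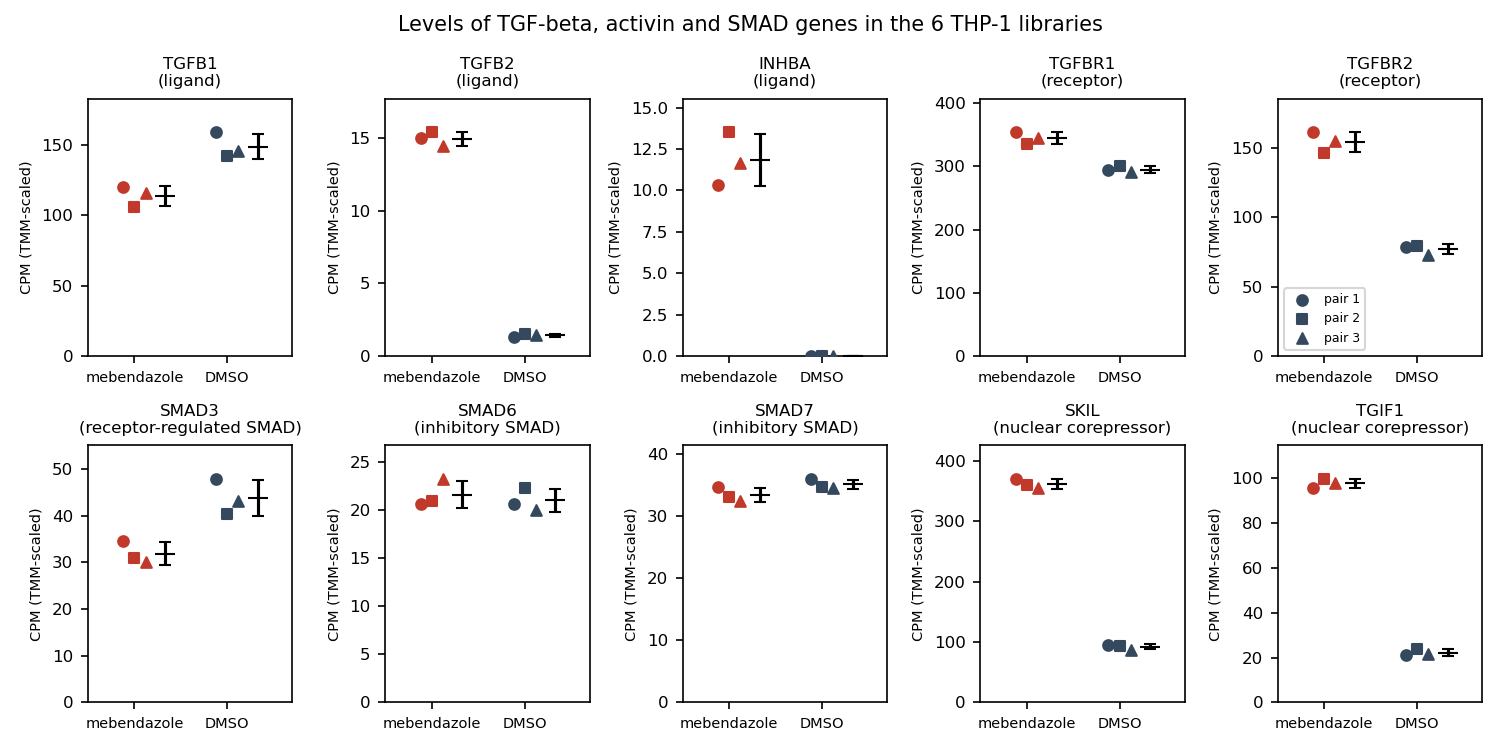
Level of each gene in CPM after TMM scaling (vertical axis, from 0) in the 3 mebendazole and 3 DMSO libraries (points, 1 shape per pair), with the mean and SD beside them. The groups do not overlap in 8 of the 10 genes, near the 82.4% of all tested genes, and overlap for SMAD6 and SMAD7, and INHBA lies at 0 in all 3 DMSO libraries.

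Of the ligand genes, INHBA encodes the beta A chain of activin A and of inhibin A. It had 146, 176 and 148 reads in the mebendazole libraries of pairs 1, 2 and 3, and 0 reads in each DMSO library. These are 10.3, 13.5 and 11.6 CPM with mebendazole, against a limit of 0.0639 CPM that 3 reads over the DMSO group would give. Every mebendazole library therefore stood above every DMSO library (adjusted p = 2.7e-33 in edgeR, n = 3 per group). Against that floor of 3 reads the level was 185-fold higher with mebendazole (156-fold with library totals in place of TMM). The exact 95% counting interval of the ratio of summed reads, 470 against 0, began at 150-fold. The intervals given here cover counting error only, and the floor leaves out the counting error of the mebendazole reads. INHBA-AS1, a transcript of the opposite strand that shares no exonic base with INHBA in GENCODE 29, had 47 reads with mebendazole and 16 with DMSO. The kit does not mark strand.

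TGFB2 encodes a TGF-beta ligand best known from development and from epithelial and stromal tissue. Its levels were 15.0, 15.4 and 14.5 CPM in the 3 mebendazole libraries, against 1.31, 1.49 and 1.47 CPM in the DMSO libraries. All mebendazole libraries were high and lay close together. The rise was 10.4-fold (log2 fold change 3.38, SE 0.15, adjusted p = 4.8e-31, edgeR; the SE is derived from the F statistic), and the ratio of summed reads, 597 with mebendazole against 67 with DMSO, had a 95% counting interval of 8.15 to 13.7. TGFB2-OT1, a noncoding transcript on the same strand, covers 1371 exonic bases of TGFB2 in GENCODE 29, so its reads cannot be told apart from those of TGFB2.

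TGFB1, the TGF-beta ligand that predominates in blood cells, moved the other way. It had 120, 106 and 116 CPM with mebendazole, and 159, 142 and 145 CPM with DMSO. The groups did not overlap, and the level was lower with mebendazole in all 3 pairs (log2 fold change -0.39, SE 0.04, adjusted p = 1.3e-13, edgeR). After TMM scaling the fall was smaller than the 1.5-fold change of a stricter test (adjusted p = 1 in that test). With library totals the fall was larger (-0.63), and the stricter test was not run with that scaling. Within a library, TGFB2 had 0.132 ± 0.0121 reads for each read of TGFB1 with mebendazole, against 0.00962 ± 0.00118 with DMSO (SD, n = 3 each), a ratio 13.7-fold higher that does not depend on library scaling. Pairs of genes for such ratios were chosen after their values were seen, and the ratios carry no test. TGFB1 was still the most abundant of the 3 ligand genes per length, at 41.1 ± 2.67 CPM per kb of exon with mebendazole and 53.8 ± 3.19 with DMSO (SD, n = 3 each). TGFB2 had 2.96 ± 0.0932 CPM per kb with mebendazole and 0.282 ± 0.0191 with DMSO, and INHBA had 1.79 ± 0.241 with mebendazole and 0 with DMSO.

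TGFBR2 encodes the receptor that binds TGF-beta and starts the signal. Its levels were 161, 147 and 155 CPM with mebendazole, against 78.7, 79.3 and 73.1 CPM with DMSO. Each mebendazole library was far above each DMSO library, a 2.00-fold rise (log2 fold change 1.00, SE 0.04, adjusted p = 1.1e-31, edgeR). TGFBR1, the partner kinase, which activin does not use, had 354, 336 and 345 CPM with mebendazole, against 294, 301 and 291 CPM with DMSO. These groups did not overlap after TMM scaling (log2 fold change 0.23, SE 0.03, adjusted p = 1.1e-08, edgeR), but with library totals the log2 fold change of TGFBR1 was -0.02 (adjusted p = 0.596), so its direction depends on the scaling. That scaling lowered the median gene by 0.24 on the log2 scale. The reads of TGFBR2 for each read of TGFBR1 numbered 0.447 ± 0.00952 with mebendazole and 0.261 ± 0.00845 with DMSO (SD, n = 3 each), 1.71-fold higher whatever the scaling.

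SMAD3, which carries the signal of TGF-beta and activin receptors to DNA, fell. It had 34.6, 30.9 and 30.0 CPM with mebendazole, and 47.8, 40.3 and 43.0 CPM with DMSO. The highest mebendazole library lay below the lowest DMSO library (log2 fold change -0.46, SE 0.06, adjusted p = 3.4e-10, edgeR), and with library totals the fall was larger (-0.70). Like that of TGFB1, the change after TMM scaling did not pass the test against 1.5-fold (adjusted p = 1).

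SMAD6, the inhibitor that acts mainly on BMP signals, had 20.6, 20.9 and 23.2 CPM with mebendazole, against 20.6, 22.3 and 20.0 CPM with DMSO. The groups overlapped, with a log2 fold change of 0.04 (SE 0.08, adjusted p = 0.603, edgeR). It was -0.05 without pair 3 (adjusted p = 0.671) and -0.20 with library totals (adjusted p = 0.0141). SMAD7, which blocks and degrades TGFBR1, had 34.7, 33.1 and 32.5 CPM with mebendazole, against 36.0, 34.8 and 34.6 CPM with DMSO. The groups overlapped too, with SMAD7 slightly lower in each pair (log2 fold change -0.07, SE 0.06, adjusted p = 0.280, edgeR), and with library totals SMAD7 passed the test at -0.32 (adjusted p = 5.7e-06). Relative to SMAD3 in the same library, both inhibitors were higher with mebendazole, at 0.683 ± 0.0891 reads of SMAD6 for each read of SMAD3, against 0.483 ± 0.0629 with DMSO, and at 1.05 ± 0.0431 reads of SMAD7, against 0.807 ± 0.0547 with DMSO (SD, n = 3 each). Neither ratio overlapped between the groups, and no share over other gene pairs was computed. Since neither inhibitor was called higher, the higher ratios restate the fall of SMAD3.

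The corepressor genes rose. SKIL, whose protein SnoN holds SMAD proteins inactive on DNA, had 371, 361 and 355 CPM with mebendazole, against 95.8, 94.2 and 87.6 CPM with DMSO. The rise was 3.92-fold (log2 fold change 1.97, SE 0.04, adjusted p = 4.4e-52, edgeR), with the libraries of each group close together. TGIF1, a homeodomain protein that recruits histone deacetylases to SMAD proteins, had 95.6, 99.7 and 97.9 CPM with mebendazole, against 21.0, 23.9 and 21.6 CPM with DMSO. Its rise was 4.41-fold (2.14, SE 0.06, adjusted p = 5.0e-44, edgeR). Their nearest relatives went the other way after TMM scaling. SKI, the related corepressor, had 128 ± 3.90 CPM with mebendazole and 153 ± 9.52 CPM with DMSO (log2 fold change -0.25), and TGIF2 had 41.8 ± 2.89 CPM with mebendazole and 46.7 ± 0.313 CPM with DMSO (-0.16). The call of TGIF2 was lost with DESeq2 (adjusted p = 0.168) and in edgeR without pair 1 (adjusted p = 0.0625) or pair 3 (adjusted p = 0.0903). SKIL had 2.82 ± 0.102 reads for each read of SKI with mebendazole, against 0.604 ± 0.0249 with DMSO, and TGIF1 had 2.34 ± 0.123 for each read of TGIF2 with mebendazole, against 0.474 ± 0.0320 with DMSO (SD, n = 3 each).

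**Figure D2:**
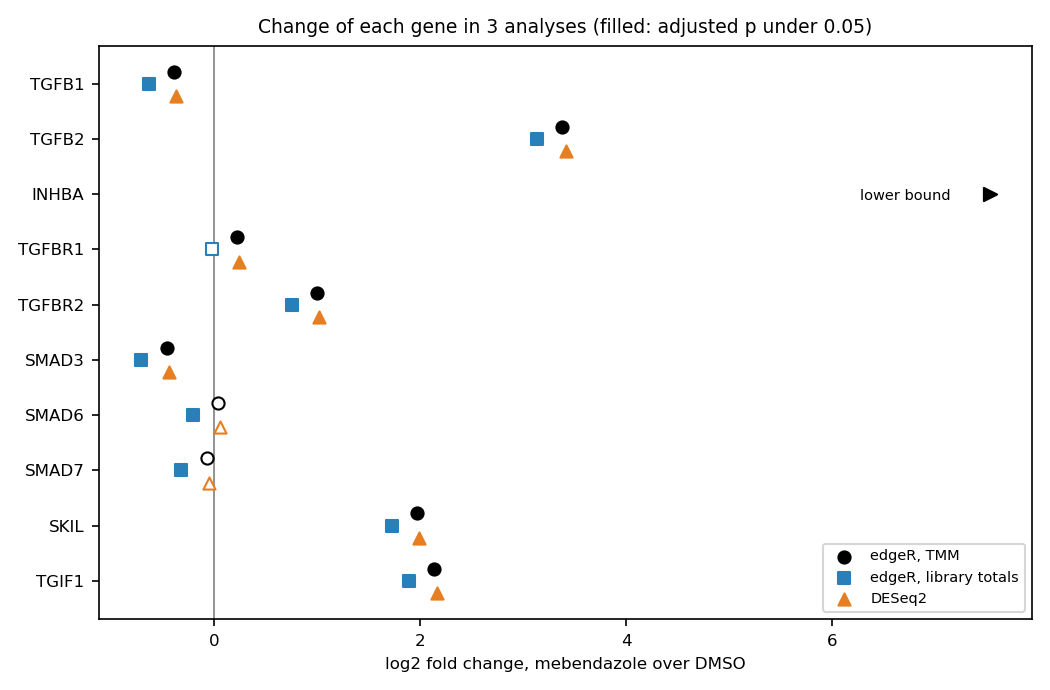
Log2 fold change of mebendazole over DMSO (horizontal axis) for each gene with edgeR and TMM, edgeR and library totals, and DESeq2, filled where the adjusted p was under 0.05. TGFB2, SKIL, TGIF1 and TGFBR2 lie above 0 and TGFB1 and SMAD3 below 0 in all 3 analyses, and TGFBR1 and SMAD6 change side with library totals. INHBA is drawn at its fold change against a floor of 3 DMSO reads, marked as lower bound, which leaves out the counting error of the mebendazole reads.

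Per length, the order of the 10 genes differed between the groups. With mebendazole TGFBR1 (52.1 CPM per kb) and SKIL (50.2) led, and their libraries overlapped. TGFB1, TGFBR2 (32.8), TGIF1 (14.3), SMAD7 (7.38), SMAD6 (5.63), SMAD3 (4.40), TGFB2 and INHBA followed, each with libraries that did not overlap those of its neighbours. With DMSO the order was TGFB1, TGFBR1 (44.6), TGFBR2 (16.4), SKIL (12.8), SMAD7 (7.75), SMAD3 (6.05), SMAD6 (5.47), TGIF1 (3.25), TGFB2 and INHBA, where SMAD3 and SMAD6 overlapped. SKIL therefore stood in place 2 with mebendazole and in place 4 with DMSO, and TGIF1 in place 5 with mebendazole and in place 8 with DMSO. Lengths are the union of exons in GENCODE 29, so levels of genes with several isoforms are approximate.

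**Figure D3:**
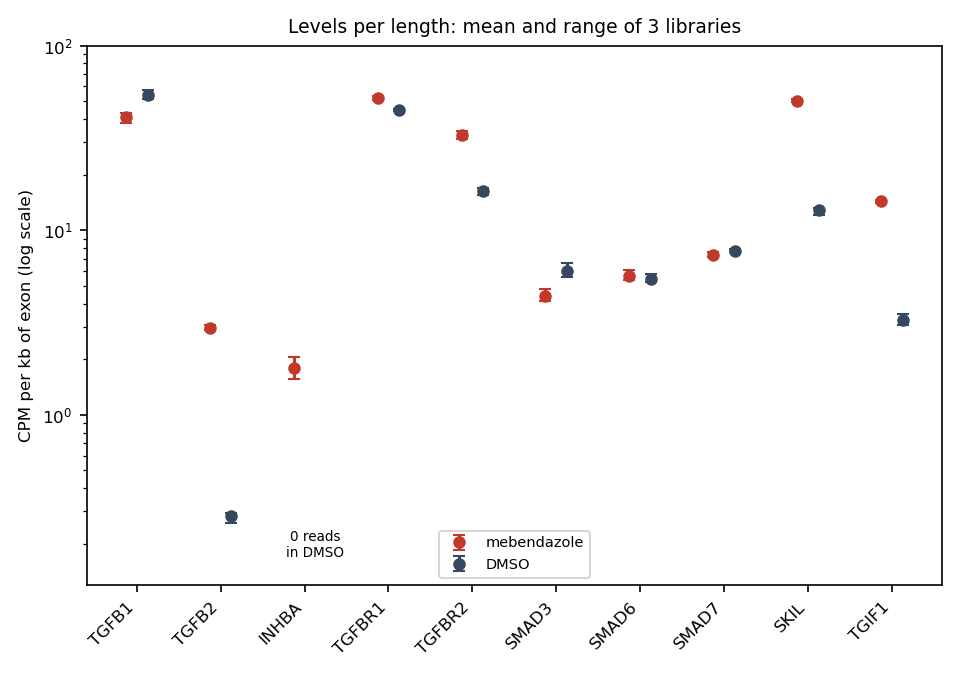
Mean level of each gene in CPM per kb of exon (vertical axis, log scale) with the range of the 3 libraries per group (bars). SKIL, TGIF1 and TGFB2 are far higher with mebendazole, and INHBA has no DMSO point because it had 0 reads there.

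Other ligand genes went both ways. Of 11 tested, 6 were called higher, against 40.6% of all genes tested, and 4 lower, against 41.7% (median log2 fold change 0.52). In either direction 10 of the 11 were called, against 82.3% of all genes, and 6 of the 29 on the list had no read in any library. INHBB, the beta B chain of activin, rose with INHBA, at 14.6 ± 0.711 CPM with mebendazole and 1.39 ± 0.407 CPM with DMSO (log2 fold change 3.38). BMP6, a BMP ligand that acts on iron control in the liver, had 869 reads with mebendazole and 7 with DMSO (7.13), and BMP8A (1.89) and GDF15 (2.73), a stress-induced member of the superfamily, rose too. BMP8A and BMP8B (-1.43) are near-identical copies that can share reads, so the values of both are uncertain. BMP8B, TGFB3, BMP4 and GDF11 were called lower, and DESeq2 called only 1 ligand lower. INHA, whose product turns the beta chains into inhibin, had 3 reads with mebendazole and 14 with DMSO and was not tested.

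Of 14 other receptor genes tested, 8 were called higher and 4 lower (median 0.41), or 6 and 5 with library totals, against 40.6% higher and 41.7% lower over all genes tested. ACVR1, a type I receptor of BMPs, had 73.8 ± 3.84 CPM with mebendazole and 8.67 ± 0.724 CPM with DMSO (log2 fold change 3.09). ACVR1B, a type I receptor of activin, had 28.6 ± 1.18 CPM with mebendazole and 24.6 ± 1.02 CPM with DMSO (0.22). It was called higher after TMM scaling but not with library totals (-0.03, adjusted p = 0.717, edgeR). ACVR1C, a receptor of NODAL, rose by 2.45 and RGMB, a BMP co-receptor, by 1.60. RGMA, the relative of RGMB, fell to 1.47 ± 0.543 CPM with mebendazole, against 16.6 ± 0.870 CPM with DMSO (-3.51). The others called lower were ACVRL1 (-1.09), TGFBR3 (-0.85) and ENG (-0.10). ENG lost its call with RLE size factors (adjusted p = 0.0525, edgeR). Of the 5 other SMAD genes, SMAD4, the partner of all receptor-regulated SMADs, and SMAD5, which carries BMP signals, were called higher (0.76 and 0.45). SMAD2, the relative of SMAD3, had 69.0 ± 1.80 CPM with mebendazole and 73.7 ± 1.16 CPM with DMSO and did not pass the test (log2 fold change -0.09, adjusted p = 0.066, edgeR). That call depends on the setting, since SMAD2 was called lower with library totals (-0.34, adjusted p = 6.1e-09), with no filter on low counts (-0.11, adjusted p = 0.0431) and with genes under a mean of 10 CPM left out (-0.13, adjusted p = 0.0124).

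Genes for storage and release of the ligands were mostly higher, with 12 of 16 tested called higher and 1 lower (median 1.74), against 40.6% higher and 41.7% lower over all genes tested. With library totals 12 were higher and 4 lower. The largest rises were THBS1 (9.48), whose product can activate latent TGF-beta, ITGB8 (6.82), an integrin chain that binds latent TGF-beta, LTBP1 (4.11), a latent TGF-beta binding protein, and LRRC32 (2.88), which holds latent TGF-beta on the cell surface. ITGB8 rested on 4 DMSO reads, against 422 with mebendazole. LRRC33, the holder of latent TGF-beta on myeloid cells, had 105 ± 2.72 CPM with mebendazole and 99.6 ± 7.07 CPM with DMSO and did not pass the test (adjusted p = 0.124, edgeR), but LRRC33 was called lower with library totals (-0.17) and higher without pair 1 (0.14) and with RLE size factors (0.09). MMP2 was called lower (-1.23). Extracellular antagonists were mostly too low to test, and of 4 tested, TWSG1 (1.22) and FSTL3 (0.70), which binds activin, rose and FSTL1 (-0.78) fell. FST, which encodes the activin inhibitor follistatin, had 8 reads with mebendazole and 11 with DMSO and was not tested.

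Of 28 tested intracellular regulators of the pathway, 18 were called higher and 6 lower (median 0.46), or 16 and 8 with library totals. Over all genes tested 40.6% were higher and 41.7% lower, and the share called in either direction was near the 82.3% of all genes. PMEPA1, an inhibitor that binds receptor-regulated SMADs, had 54.7 ± 2.33 CPM with mebendazole and 3.76 ± 0.151 CPM with DMSO (log2 fold change 3.85). The endosome proteins ZFYVE16 (2.08) and HGS (1.71) rose, and TAB1, a partner of the kinase MAP3K7, fell (-1.18).

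Of 25 tested genes known as targets of TGF-beta and SMAD3 in other cell types, 21 were called higher, against 40.6% of all genes tested, and 0 lower, against 41.7%. Their median log2 fold change was 2.29, against -0.03 for all genes tested. The counts were the same with library totals and with DESeq2. This list was chosen with earlier results of these data known, and whether that choice shaped the counts was not tested. Some of its genes also stand on other lists here. ANGPTL4, a lipase inhibitor, rose by 5.52, CTGF, a matrix growth factor, by 5.23, SNAI2, a transcription repressor, by 4.94, and TGM2, a transglutaminase, by 4.38. They rested on 11, 25, 9 and 70 DMSO reads. TGFBI, a matrix protein named for its induction by TGF-beta, reached 3264 ± 70.8 CPM with mebendazole, against 421 ± 7.95 CPM with DMSO (2.95). The 4 that did not pass were COL1A1, COL4A1, C18orf1 and ITGAE, and COL1A1 passed without pair 1 (0.77). Many of these genes also answer to other signals, and phosphorylated SMAD3 was not measured.

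Of 9 tested BMP targets, 3 were called higher and 1 lower (median 0.00), against 40.6% higher and 41.7% lower over all genes tested. At a mean CPM of 10 or more only 3 were tested, with 2 called higher and 0 lower. SMAD9, ATOH8, MSX1 and BAMBI did not pass and had means of 1.44, 0.91, 0.95 and 1.16 CPM over both groups. The median thus rests partly on genes near the floor. HEY1 was called higher (4.98), with 37 reads with mebendazole and 1 with DMSO. ID3 and ID1, inhibitors of helix-loop-helix factors, rose by 2.41 and 1.08, and MSX2 fell (-0.83), while ID2 had 86.9 ± 4.72 CPM with mebendazole and 88.0 ± 3.23 CPM with DMSO and did not pass the test (adjusted p = 0.746, edgeR), although ID2 was called lower with library totals (-0.26). Of the 16 monocytic markers, 11 fell beside these groups of genes, with CYBB at -3.88 and CD33 at -1.76 on the log2 scale at one end, and 4 rose, with SPI1 at 0.98 and PTPRC at 1.00 at the other. Their part in the results was not tested.

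**Figure D4:**
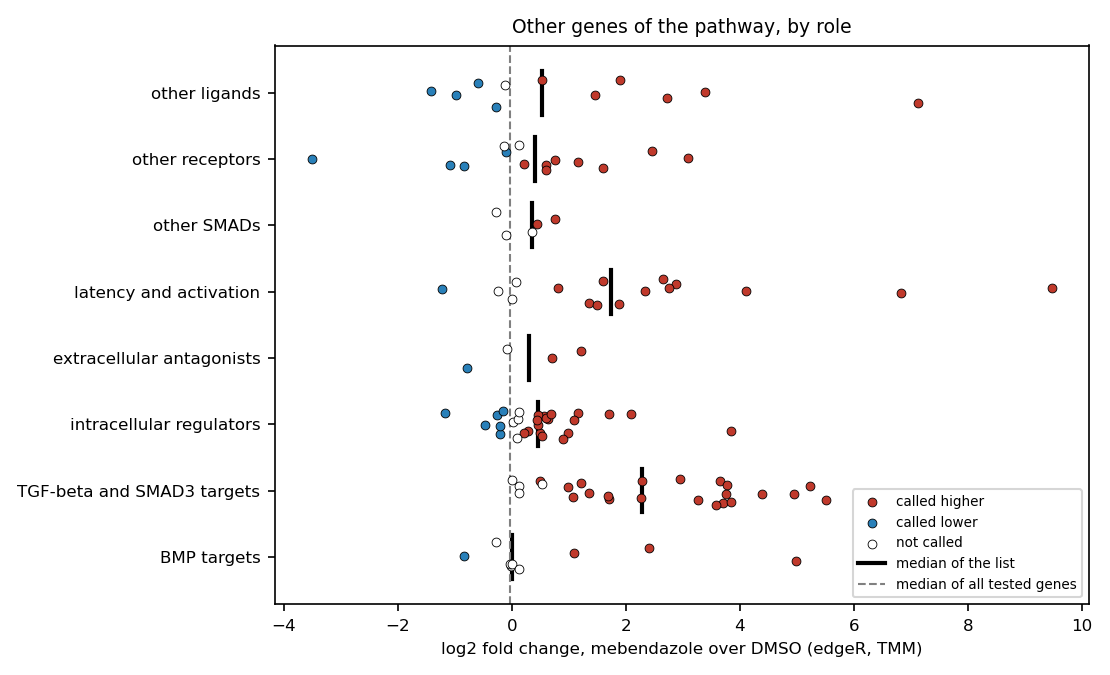
Log2 fold change of mebendazole over DMSO (horizontal axis) for every tested gene of 8 lists by role (points, filled by call), with the median of each list (black bar) and of all tested genes (dashed line). The listed targets of TGF-beta and SMAD3, which leave out the 10 genes such as SMAD7 and SKIL, have a median of 2.29 and none called lower. The median of the 9 BMP targets is 0.00, and only 3 of these have a mean CPM of 10 or more. The lists were chosen with earlier results of these data known.

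Over the 6 libraries, the genes closest to INHBA in centred log2 CPM were ISM1, NT5E and DUSP4, at Euclidean distances of 0.397, 0.405 and 0.414. Each had a low level with DMSO and a high one with mebendazole. For SMAD3, the gene with the largest fall of the 10, the closest were ABP1, ZNF500 and BCAS3, at 0.0464, 0.0897 and 0.0939, with log2 fold changes of -0.48, -0.46 and -0.47. With 2 conditions, such likeness reflects mostly the size of the change, and nothing about shared function follows from it.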

How the data were processed

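RNA of THP-1 cells was prepared with Illumina's TruSeq RNA v2 protocol, per the labels, which does not mark strand. The authors deposited unnormalized read counts for each gene symbol and library. The submitters' processing notes list STAR, bedtools, HTSeq, DESeq2 and hg19 but no versions or roles. The annotation and any filters were not given in the sources used here.

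Counts were analysed with edgeR 4.0.16 in R 4.3.3: filterByExpr left 13591 of 23710 genes, libraries were scaled by TMM, and the two-sided quasi-likelihood F test compared mebendazole with DMSO across all genes, with the sample pair as a term, Benjamini-Hochberg adjustment over all genes and calls under 0.05. The labels state pairs but not what a pair shares, and the p-values thus reflect only how much these libraries vary, which may be technical; replicates differed by more than sampling noise. The residual spread rests on 2 degrees of freedom per gene and a prior of 61.0. The SE is the log2 fold change divided by the square root of F. DESeq2 1.42.0 was an alternative.

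Named were all 10 genes, the 4 called genes of each pathway list (not of the marker lists) with the largest change (mean CPM of 1 or more, same direction in all pairs) and the 3 nearest profiles. BMP8B, TGFB3, BMP4, GDF11, INHA, ACVR1B, ACVRL1, TGFBR3, ENG, SMAD2, SKI, TGIF2, LRRC33, MMP2, FST, TGFBI, ID2, HEY1, CD3D, CD3E, CD3G, COL1A2, PECAM1, CYBB, CD33, SPI1, PTPRC, INHBA-AS1 and the uncalled targets were named after their values were seen. The genes and lists were chosen with earlier results of these data known. GENCODE 29 (GRCh38) gave exon lengths and overlaps only, by symbol.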

Additional observations from a re-analysis of the deposited data

How the results depend on the processing

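Across the alternatives, INHBA, TGFB2, TGFBR2, SKIL and TGIF1 kept their direction and call in each setting that tested them; INHBA and TGFB2 were not tested at a mean CPM of 10 or more. With library totals, which shift the median gene by -0.24, 4 of the 10 genes were called lower and TGFBR1 (-0.019) and SMAD6 (-0.20) changed sign, and SMAD7 passed the test (-0.32). In the test against a 1.5-fold change, 5774 genes passed (2896 higher, 2878 lower), 0 of the 10 were lower, and TGFB1 (-0.39), SMAD3 (-0.46) and TGFBR1 (0.23) lost their calls, since that test asks for a larger change. SMAD6 ranged from -0.046 to 0.13 when a pair was left out. Leaving out a pair stood for leaving out a library, since a library without its partner adds nothing in the paired fit. With no replicate block, 11118 genes were called in place of 11192 and none of the 10 changed its call; within pairs, deviations from the group means had correlations of -0.00, 0.06 and 0.02. Of the called genes, 36.4% were higher with library totals. List counts moved over 1.5 times in 31 of 240 recomputations, mostly at a mean CPM of 10 or more and in the 1.5-fold test.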
